A study of Mus musculus with 4 samples.

Results

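Genes that mark the hepatocytes around the central vein of the liver lobule, or that respond there to Wnt signalling, were followed in male and female mouse liver. They were chosen by symbol from a set of 10 names: Glul, Lgr5, Axin2, Rhbg, Tbx3, Rnf43, Znrf3, Cyp1a2, Cyp2e1 and Lect2. Of these, 8 had a row among the 21827 gene entries of the table the authors deposited, and Glul and Rnf43 were not analysed here. Untreated male and untreated female CD-1 mice from Charles River, an outbred stock, were 8 weeks old. Each sex contributed 12 livers, whose RNA was pooled 6 livers at a time, and poly-A-enriched RNA of the resulting 4 pools (2 per sex) was sequenced with a strand-specific preparation. The deposited table gives 1 level per gene and sex, in log2 RPKM (reads scaled by transcript length and by sequencing depth), so no value per pool and no spread between pools can be shown. Alb, the serum albumin gene that marks hepatocytes, had a log2 RPKM of 14.825 in male and 15.518 in female liver, and of the 9 hepatocyte markers compared, 2 were female-higher and 3 male-higher. RNA of whole liver was measured, so that fewer cells of a type and less RNA per cell cannot be told apart, and the zone a transcript came from was not measured.

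In the liver lobule, endothelial cells of the central vein release Wnt ligands and R-spondins, which act on the hepatocytes next to them. Wnt ligands bind Frizzled and LRP receptors, and beta-catenin then escapes its destruction complex and drives transcription with TCF and LEF factors. R-spondins bind LGR receptors and keep the ubiquitin ligases ZNRF3 and RNF43 from removing Frizzled. Pericentral hepatocytes are known for glutamine synthesis and for cytochromes P450 that handle drugs and ethanol, whereas periportal hepatocytes make urea and glucose.

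Of the 8 genes, 5 were female-higher and none was male-higher at an adjusted p under 0.05 per the authors' deposited table. Lgr5 and Lect2 differed by more than 2.4-fold, Rhbg, Tbx3 and Axin2 by 1.53-fold to 1.62-fold, and Znrf3, Cyp1a2 and Cyp2e1 did not pass the threshold. Among the 13763 genes for which a ratio between the sexes could be read (the compared genes), 10.2% were called higher in female liver and 7.21% higher in male liver. The share called female-higher was 9.2% among compared genes that reached a log2 RPKM of 1 in male or female liver, as all 8 did. The median log2 ratio of male over female was -0.62 for the 8 genes and -0.02 for all compared genes, and 7 of the 8 ratios lay below 0. These 7 include Cyp1a2, at -0.011, whose plain difference of log2 RPKM was 0.005. The 8 genes were named with earlier results of these data known, so their count and median are a description.

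**Figure D1:**
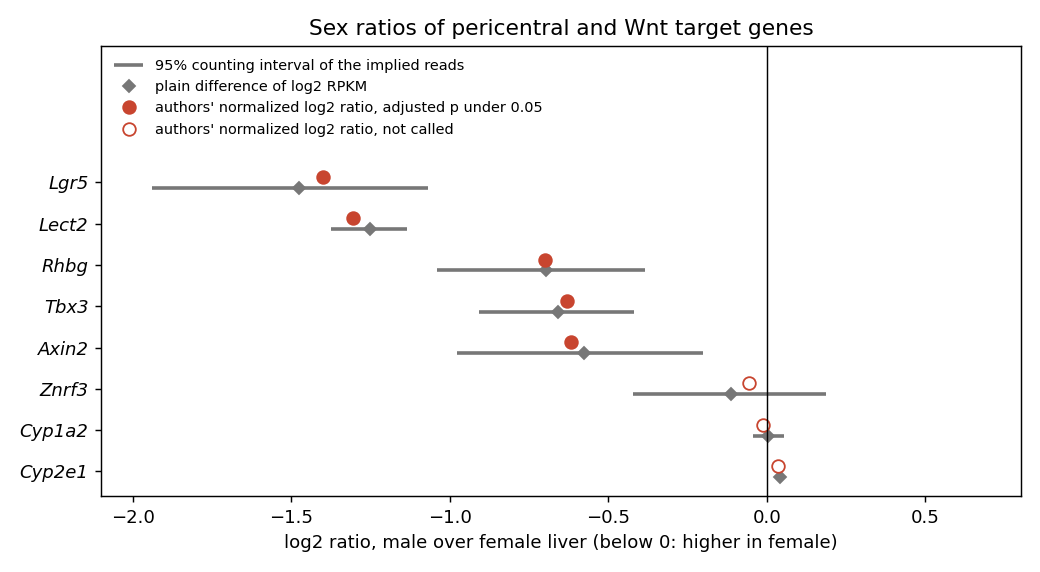
Log2 ratio of male over female liver (x axis, below 0 is higher in female liver) for the 8 genes, with the authors' own ratio as circles (filled where their adjusted p is under 0.05), the plain difference of log2 RPKM as grey diamonds and the 95% counting interval of the implied reads as grey lines (none for Cyp2e1). The 5 filled circles lie between -1.40 and -0.62 and the 3 open circles between -0.06 and 0.04.

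Lgr5, a receptor for R-spondins that marks pericentral hepatocytes in liver and stem cells in other organs, had the largest ratio of the 8 (10, 114887370 to 115024836, minus strand, mm9). Its level was 1.11 RPKM in male liver, against 3.10 RPKM in female liver. Female liver was 2.64-fold higher per the authors' deposited table (normalized log2 ratio -1.40, adjusted p = 5.93e-06). The levels imply 58 reads in male liver and 214 in female liver, which by counting alone permit 2.10-fold to 3.83-fold in favour of female liver (exact 95% interval of the reads). These implied reads come from the level, the transcript length and a depth read from unexpressed genes. Intervals made from them cover counting error only, not differences between mice or pools. They also take the transcript length as right. Among 4668 unexpressed genes, the length used agreed within 2% with that implied by the deposited level for 74.2%. Lgr4, a related R-spondin receptor, had 19.1 RPKM in male and 17.1 RPKM in female liver, with a log2 ratio of 0.15 and an adjusted p of 0.444 per the authors' deposited table. Lgr6 sat at the floor in both sexes, the value taken here as no reads. The difference between the Lgr5 and Lgr4 ratios was not tested.

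Axin2, a scaffold of the beta-catenin destruction complex that is itself a general Wnt target, had 1.82 RPKM in male liver, against 2.71 RPKM in female liver (11, 108781663 to 108812095, plus strand, mm9). Female liver was 1.53-fold higher per the authors' deposited table (log2 ratio -0.62, adjusted p = 0.024), which passes 0.05 but not the threshold of 0.01 at which the authors assigned a sex bias. Lgr5, Lect2, Rhbg and Tbx3 passed 0.01, as did 6.05% of all compared genes in the same direction. The 86 implied reads in male and 169 in female liver allow 1.15-fold to 1.97-fold by counting alone. Znrf3, the ubiquitin ligase that removes Frizzled receptors, had 2.20 RPKM in male and 2.38 RPKM in female liver (11, 5176332 to 5344850, minus strand, mm9). Its log2 ratio was -0.06 with an adjusted p of 0.946 per the authors' deposited table. From 155 and 220 implied reads in male and female liver, counting error permits 0.879-fold to 1.34-fold of female over male, an interval that holds no difference and also a modest one.

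Tbx3, a T-box transcription factor expressed in pericentral hepatocytes, had 3.85 RPKM in male liver, against 6.08 RPKM in female liver (5, 120120678 to 120134610, plus strand, mm9). Female liver was 1.55-fold higher per the authors' deposited table (log2 ratio -0.63, adjusted p = 0.00623), and counting allows 1.34-fold to 1.88-fold. Rhbg, an ammonium transporter of the Rhesus family, had 5.35 RPKM in male liver, against 8.66 RPKM in female liver (3, 88046796 to 88058606, minus strand, mm9). Female liver was 1.62-fold higher per the authors' deposited table (log2 ratio -0.70, adjusted p = 0.00708), and counting allows 1.30-fold to 2.06-fold. The other ammonium transporters of the family that were listed, Rhcg and Rhag, lay at the floor in both sexes.

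Lect2, which encodes a secreted protein made by hepatocytes and a known beta-catenin target in mouse liver, combined a high level with a large ratio (13, 56643821 to 56649899, minus strand, mm9). It had 79.5 RPKM in male liver, against 189 RPKM in female liver. Female liver was 2.47-fold higher per the authors' deposited table (log2 ratio -1.31, adjusted p = 3.95e-11). With 747 and 2334 implied reads in male and female liver, counting error permits 2.20-fold to 2.59-fold, the narrowest interval among the 5 called genes.

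The cytochromes P450 of the set were the most abundant of the 8 and did not pass the threshold. Cyp2e1, which oxidizes ethanol and paracetamol, had 3270 RPKM in male and 3180 RPKM in female liver (7, 147949638 to 147960874, plus strand, mm9). Its log2 ratio was 0.04 with an adjusted p of 0.852 per the authors' deposited table. No transcript length matched its table entry, so no reads were implied. Cyp1a2, which oxidizes caffeine and is induced through the aryl hydrocarbon receptor AHR, had 278 RPKM in male and 277 RPKM in female liver (9, 57524744 to 57531462, minus strand, mm9). The log2 ratio was -0.01 with an adjusted p of 0.957 per the authors' deposited table. Its 6058 and 7905 implied reads in male and female liver put female over male between 0.964-fold and 1.03-fold by counting alone.

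**Figure D2:**
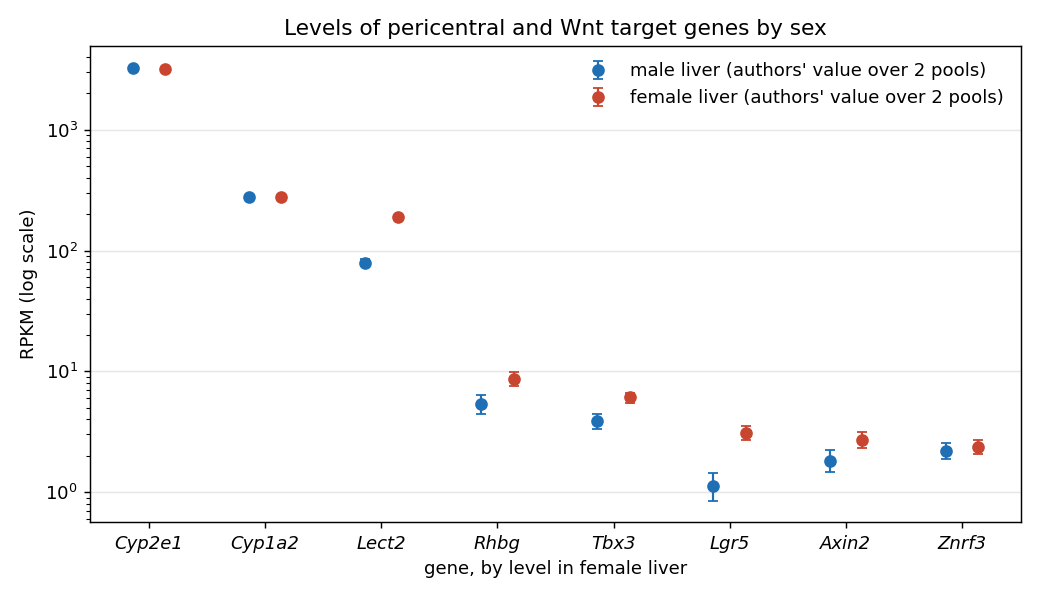
Level in RPKM (y axis, log scale) of the 8 genes in male liver (blue, left of each pair) and female liver (red, right), as the authors' value over 2 pools, with 95% counting intervals where a transcript length was matched. Cyp2e1 and Cyp1a2 stand at 3270 and 278 RPKM in male liver with female values beside them, and Lgr5 is the lowest of the 8 in male liver at 1.11 RPKM.

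The order of levels, per transcript length, was the same in both sexes for the 5 most abundant genes: Cyp2e1, Cyp1a2, Lect2, Rhbg and Tbx3. Cyp2e1 stood at percentile 99.9 of the compared genes in each sex, and Lect2 at percentile 94.7 in male and 97.9 in female liver. Below them, male liver had Znrf3, Axin2 and Lgr5 in falling order, and female liver Lgr5, Axin2 and Znrf3. In male liver the counting intervals of Znrf3 and Axin2 overlapped and those of Axin2 and Lgr5 did not. In female liver the interval of Axin2 overlapped those of both Lgr5 and Znrf3. Lgr5 stood at percentile 24.5 of the compared genes in male liver and 38.6 in female liver. Spread between pools is unknown, so none of these orders was tested.

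**Figure D3:**
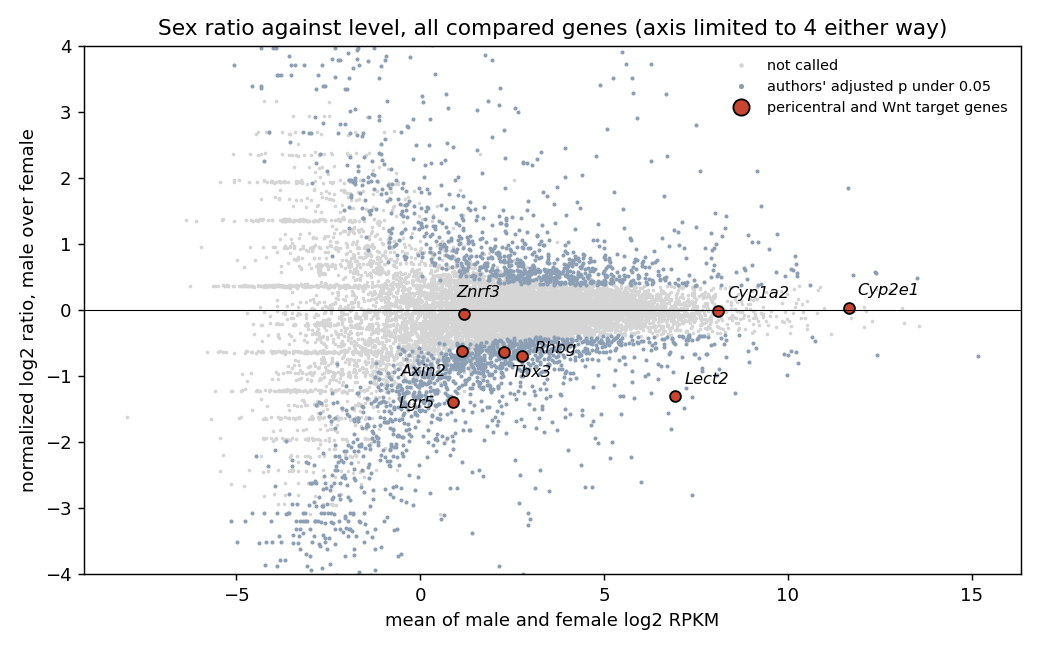
Ratio between the sexes as the authors' normalized log2 value, male over female (y axis, limited to 4 either way, with 87 genes outside) against the mean of the male and female log2 RPKM (x axis) for 13758 compared genes with a level, in grey where not called and blue-grey where the authors' adjusted p is under 0.05. The 8 genes are red: Lect2 at -1.31 lies at a high level, Lgr5 at -1.40 at a low one, and Cyp1a2 and Cyp2e1 lie near 0 at the right.

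RefSeq promoter sequences were matched for 4 of the 8 genes, and they are shown because the set is defined by a pathway that acts through TCF and LEF factors and holds both a called group and genes that were not called. Each runs over the 250 bases before the transcription start, 5′ to 3′ on the strand of the gene, on build GRCm38.p6. Capitals mark the TCF/LEF core CTTTGA, or TCAAAG where it is on the opposite strand. Lect2 is chr13:56548539-56548788 (minus strand), Axin2 chr11:108920099-108920348 (plus), Cyp1a2 chr9:57683656-57683905 (minus) and Cyp2e1 chr7:140763569-140763818 (plus).
Lect2: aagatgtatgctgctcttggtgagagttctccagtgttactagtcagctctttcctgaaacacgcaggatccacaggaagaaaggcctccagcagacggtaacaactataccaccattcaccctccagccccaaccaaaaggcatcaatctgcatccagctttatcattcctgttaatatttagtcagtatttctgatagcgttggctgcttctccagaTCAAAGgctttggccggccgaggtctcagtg
Axin2: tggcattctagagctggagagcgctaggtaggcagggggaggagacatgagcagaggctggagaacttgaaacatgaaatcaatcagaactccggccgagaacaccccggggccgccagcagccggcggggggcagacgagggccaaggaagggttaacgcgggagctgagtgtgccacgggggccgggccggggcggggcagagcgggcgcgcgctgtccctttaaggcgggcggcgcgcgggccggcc
Cyp1a2: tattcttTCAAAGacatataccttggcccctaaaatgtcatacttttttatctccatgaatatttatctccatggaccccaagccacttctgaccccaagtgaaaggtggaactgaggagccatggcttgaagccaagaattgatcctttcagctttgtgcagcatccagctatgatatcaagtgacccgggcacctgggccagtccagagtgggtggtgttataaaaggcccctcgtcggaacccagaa
Cyp2e1: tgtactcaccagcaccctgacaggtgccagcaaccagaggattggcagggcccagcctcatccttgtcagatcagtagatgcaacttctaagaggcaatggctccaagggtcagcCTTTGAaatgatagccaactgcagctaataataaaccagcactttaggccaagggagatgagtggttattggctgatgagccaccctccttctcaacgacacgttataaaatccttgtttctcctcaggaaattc

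The core was present once in the windows of Lect2, Cyp1a2 and Cyp2e1, beginning 31, 243 and 135 bases before the start, and these letters did not occur in the window of Axin2. Of 32851 promoter windows of the same length, 13.8% held the core on either strand. The 3 genes with the core include Lect2, which was called, and Cyp1a2 and Cyp2e1, which were not. The STAT5 motif TTCNNNGAA, searched because growth hormone acts on liver through STAT5, occurred in none of the 4 windows and in 7.02% of all windows. The AHR core GCGTG (28.2% of all windows) and the HNF1 partial site GTTAAT (6.43% of all windows) each occurred in the Lect2 window alone among the 4. No match overlapped a match of another motif, and a match of a short motif is a description of letters, not of binding.

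Wnt ligand and R-spondin genes were compared next. Of 25 listed, including the ligand-secretion genes Porcn and Wls, 11 sat at the floor in both sexes and 10 were compared, 3 of them female-higher and 0 male-higher, with a median log2 ratio of -0.40. Wnt5b was 1.63-fold higher in female liver (adjusted p = 0.0055) and Wnt5a 1.46-fold (adjusted p = 0.0375) per the authors' deposited table. Rspo1 was listed as 9.18-fold higher in female liver (adjusted p = 0.0241) per the authors' deposited table, but its levels imply 1 read in male and 12 in female liver, which permit 1.36-fold to 392-fold. Its plain difference of log2 RPKM was -2.31, against a normalized log2 ratio of -3.20, so the size is uncertain. The ligands known from central vein endothelium, Rspo3, Wnt2 and Wnt9b, had log2 ratios of -0.02, -0.29 and -0.42 and adjusted p of 1, 0.367 and 0.585 per the authors' deposited table. Their log2 RPKM values were 1.893, 0.92 and -1.58 in male liver and 1.904, 1.147 and -1.198 in female liver. By counting alone, Wnt2 (47 and 73 implied reads in male and female liver) permits 0.811-fold to 1.75-fold of female over male. Wnt9b (16 and 28 implied reads) permits 0.699-fold to 2.64-fold. Both intervals hold no difference and also one as large as that of Axin2. For Rspo3 no reads were implied.

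The lists of receptors and of the intracellular relay held no called gene at the authors' adjusted p, and no unadjusted p-value was used here. These lists leave out the receptor gene Lgr5 and the destruction complex gene Axin2, both called female-higher above. None of the 11 compared genes listed as Wnt and R-spondin receptors was called, with a median log2 ratio of 0.02. Lrp5, a Wnt co-receptor, had log2 RPKM values of 3.97 in male and 3.986 in female liver (adjusted p = 0.968 per the authors' deposited table). None of the 17 compared genes listed for the beta-catenin destruction complex and its relay was called, with a median log2 ratio of -0.05. Ctnnb1, the beta-catenin gene, had 70.4 RPKM in male and 71.9 RPKM in female liver (log2 ratio -0.04, adjusted p = 0.823 per the authors' deposited table). Csnk1a1, a kinase of the complex, had 60.7 RPKM in male and 63.6 RPKM in female liver (adjusted p = 0.695 per the authors' deposited table).

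Among 13 TCF/LEF factors and co-factors, 1 gene was called in each direction, with a median log2 ratio of -0.02. Pygo1, a chromatin-binding co-activator of beta-catenin, had 0.560 RPKM in male liver, against 4.44 RPKM in female liver, and was 8.59-fold higher in female liver (adjusted p = 3.78e-11) per the authors' deposited table. Its 49 and 516 implied reads in male and female liver allow 5.99-fold to 11.0-fold by counting. Tle3, a co-repressor, was 2.13-fold higher in male liver (adjusted p = 5.51e-06) per the authors' deposited table. Of 6 compared secreted Wnt inhibitors, Notum was called female-higher and Dkk3 male-higher. Notum, which strips the lipid from Wnt ligands and is also a Wnt target, was 1.76-fold higher in female liver (adjusted p = 0.000249) and Dkk3 2.29-fold higher in male liver (adjusted p = 0.0269) per the authors' deposited table. The median log2 ratio of the inhibitors was -0.025. Dkk3 rests on 31 and 17 implied reads in male and female liver.

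Other genes known as Wnt targets in various tissues included both female-higher and male-higher ones. Of 19 compared, 5 were higher in female liver and 1 in male liver, with a median log2 ratio of -0.54. Ccnd1, the cyclin D1 gene, had 8.20 RPKM in male liver, against 32.5 RPKM in female liver, and was 4.35-fold higher in female liver (adjusted p = 4.53e-24) per the authors' deposited table. Nkd1, an inhibitor of Wnt signalling induced by it, had 0.680 RPKM in male liver, against 1.75 RPKM in female liver, and was 2.60-fold higher in female liver (adjusted p = 0.000181) per the authors' deposited table. Sox9, a transcription factor of bile duct cells, was 1.92-fold higher in female liver (adjusted p = 0.00123) and Cd44, an adhesion receptor, 1.71-fold (adjusted p = 0.00802) per the authors' deposited table. Notum, described above, was the fifth. Myc, a growth regulator, was 1.47-fold higher in male liver (adjusted p = 0.0112) per the authors' deposited table, with a plain difference of log2 RPKM of 0.36 against a normalized log2 ratio of 0.56. Many of these genes also respond to other signals, and several are expressed in cells other than hepatocytes.

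Other pericentral hepatocyte genes differed in both directions. Of 37 compared, 15 were higher in female liver, 8 in male liver and 14 were not called, with a median log2 ratio of -0.06. Oat, ornithine aminotransferase, which feeds glutamine synthesis next to the central vein, had 99.6 RPKM in male liver, against 225 RPKM in female liver. It was 2.28-fold higher in female liver (adjusted p = 5.46e-10) per the authors' deposited table. Slc13a3, a dicarboxylate transporter, was 3.22-fold higher in female liver (adjusted p = 1.95e-13), and Cyp2c37 6.05-fold (adjusted p = 1.91e-36), per the authors' deposited table. On the male side, Csad, an enzyme of taurine synthesis, was 2.88-fold higher (adjusted p = 2.2e-14) and Ephx1, microsomal epoxide hydrolase, 2.28-fold higher (adjusted p = 7.01e-10) in male liver per the authors' deposited table. Cyp7a1, of bile acid synthesis, was the remaining gene named for its size, at a log2 ratio of -1.33. The Cyp2c and Gstm genes of this list have close paralogs, and since the authors' handling of reads shared between copies is not stated, their single values are uncertain.

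Glutamine and ammonia genes, which set Rhbg in its pathway, had 4 female-higher and 1 male-higher gene of 13 compared, with a median log2 ratio of -0.29. Besides Oat, the glutamate transporter gene Slc1a2 was 1.61-fold higher (adjusted p = 0.000353), the glutaminase gene Gls2, which is periportal, 1.31-fold (adjusted p = 0.038) and the glutamate dehydrogenase gene Glud1 1.30-fold (adjusted p = 0.0397) in female liver per the authors' deposited table. Slc7a5, an exchanger of large neutral amino acids, was 1.99-fold higher in male liver (adjusted p = 0.0309) per the authors' deposited table. Its levels were low, at 0.895 RPKM in male and 0.449 RPKM in female liver, and no reads were implied.

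Periportal hepatocyte genes, the opposite end of the lobule, also differed in both directions. Of 27 compared, 7 were higher in female liver, 4 in male liver and 16 were not called, with a median log2 ratio of -0.12. Mfsd2a, a lipid transporter, was 4.80-fold higher in female liver (adjusted p = 8.56e-18), and Ctsc, a lysosomal protease, 1.90-fold (adjusted p = 1.97e-06), per the authors' deposited table. Cyp2f2, a cytochrome P450 of periportal cells, was 1.90-fold higher in male liver (adjusted p = 7.73e-07) and Agxt2l1, an ethanolamine-phosphate lyase, 1.54-fold (adjusted p = 0.00113) per the authors' deposited table. Igfals and Apoa4, which encode secreted carrier proteins, were 1.64-fold and 1.59-fold higher in female liver per the authors' deposited table. The summed level of the list was 11461 RPKM in male and 11412 RPKM in female liver. That of the other pericentral genes was 14167 and 12663 RPKM in male and female liver. A sum follows its most abundant genes, and in the pericentral one Mgst1 had 4208 RPKM in male and 2872 RPKM in female liver. By count, 15 genes of that list were female-higher and 8 male-higher. The difference between the lists was not tested.

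**Figure D4:**
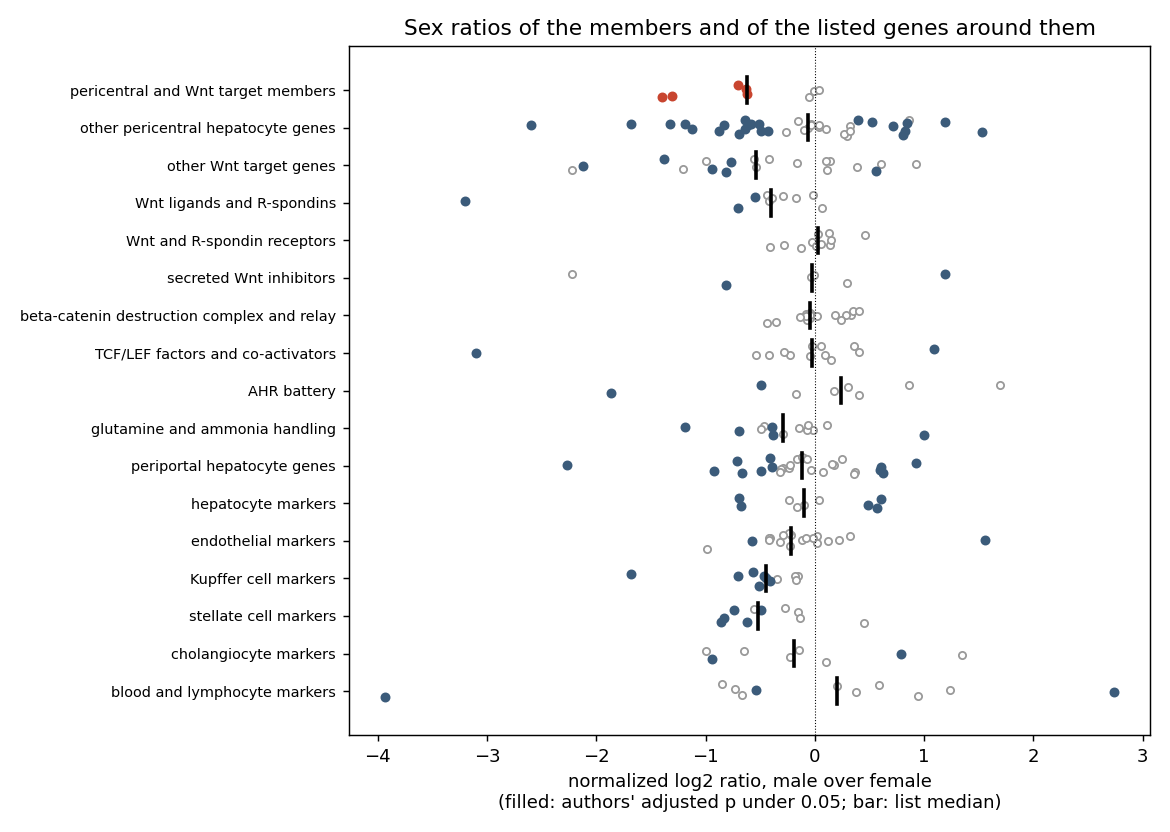
Ratio between the sexes as the authors' normalized log2 value, male over female (x axis), for every compared gene of the 8-gene set (top row, red where called) and of 16 gene lists (other rows, dark blue where called), with open circles for genes not called and a bar at each median. The medians are -0.62 for the 8 genes, -0.06 for other pericentral genes, -0.54 for other Wnt targets and -0.12 for periportal genes.

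Kupffer and stellate cell markers included genes called in the same direction as the 5 called genes above. Of 11 compared Kupffer cell markers, 7 were female-higher and 0 male-higher (3 female-higher at an adjusted p under 0.01), and their summed level was 219 RPKM in male and 286 RPKM in female liver. Marco, a scavenger receptor, had the largest ratio at 3.21-fold higher in female liver (adjusted p = 1.11e-07) per the authors' deposited table, followed by C1qc at 1.63-fold (adjusted p = 0.00257) and C1qb at 1.48-fold (adjusted p = 0.00798). Of 10 stellate cell markers, 5 were female-higher and 0 male-higher, with sums of 166 and 221 RPKM in male and female liver. Among them Pdgfrb, a growth factor receptor, was 1.81-fold and Lrat, which stores retinol as esters, 1.78-fold higher in female liver per the authors' deposited table. Of 19 endothelial markers, Pecam1 was 1.49-fold higher in female liver (adjusted p = 0.00934) and Selp 2.94-fold higher in male liver (adjusted p = 0.0434, on 16 and 7 implied reads in male and female liver) per the authors' deposited table. Their sums were 189 and 208 RPKM in male and female liver. The median log2 ratio was -0.45 for the Kupffer, -0.52 for the stellate and -0.22 for the endothelial list. None of the markers of these 3 lists was at the floor in both sexes. Their part in the ratios of the 8 genes was not tested.

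The nearest compared gene on each side of the 8 genes, 16 in all, lay 4.56 to 609 kb away. Of these 16 flanking genes, 4 were female-higher and 2 male-higher, beside 10.2% and 7.21% of all compared genes. Both flanking genes of Rhbg were female-higher, 1700113A16Rik by 3.82-fold (adjusted p = 0.00336) and 1700021C14Rik by 1.89-fold (adjusted p = 0.00697) per the authors' deposited table. On one side of Lgr5, Zfc3h1 was 1.41-fold higher in male liver (adjusted p = 0.0128) per the authors' deposited table. Per the same source, Tgfbi beside Lect2 was 1.47-fold higher in female liver (adjusted p = 0.0125). Xbp1 beside Znrf3 was 1.33-fold higher in male liver (adjusted p = 0.032). Sprn beside Cyp2e1 was listed as 22.4-fold higher in female liver (adjusted p = 0.000181). Its log2 RPKM was only -4.15 in male and -0.585 in female liver. No flanking gene of Axin2 (506 and 275 kb away) or Tbx3 (43.3 and 432 kb away) was called. None of the 8 genes overlapped another entry of the table.

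Among 212 compared genes of the lists, those nearest in the pair of log2 RPKM values were Oat for Lect2 (distance 0.41), Wnt5b for Tbx3 (0.09), S100a8 for Axin2 (0.04), Emr1 for Rhbg (0.32) and Sox9 for Lgr5 (0.45). Next came Nr1i3 for Lect2, Dvl3 for Tbx3, Wnt5a for Axin2, Lyve1 for Rhbg and Pdgfrb for Lgr5. The distance is over 2 values per gene, 1 for each sex, and is a description.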

How the data were processed

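Poly-A-enriched, strand-specific RNA of 4 liver pools was sequenced, per the labels' protocols. The submitters' processing notes name Bowtie, edgeR and build mm9, giving neither version nor role. How the authors went from reads to genes is not stated in the labels or the file. The authors' deposited table holds log2 RPKM per sex, a normalized log2 ratio of male over female, the linear ratio, a signed fold change (a score, negative for female-higher genes) and an adjusted p-value of unstated method. The authors also deposited a flag for genes at or above log2 RPKM 1 in male or female liver.

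Calls use the authors' adjusted p at a threshold of 0.05. The authors assigned a sex bias at 0.01. Genes called here with an adjusted p between 0.01 and 0.05, such as Axin2, Wnt5a, Myc and Gls2, are sex-independent in their classes. The planned test on counts could not be run, since pools are not separated. Left out were 6590 genes at the floor in both sexes, 14 without a level and 1460 above the floor in 1 sex with the ratio set to 1. Listed genes at the floor in both sexes, such as Wnt1, Dkk1 and Rhcg, carry a deposited adjusted p of 0.026. How that value arose without reads is not stated. Calls with an adjusted p near it, as for Axin2, Rspo1 and Dkk3, are therefore uncertain. Floors imply 11241814 reads in male and 14719686 in female liver, counting the added value as 1 read. Lengths came from GENCODE vM21 by RefSeq accession and were found for 7 of the 8 genes. Among genes at the floor in both sexes with a length, 74.2% agreed within 2% with the length implied by the floor. Intervals are exact (Clopper-Pearson for ratios, Poisson for levels; scipy 1.17.1). The 16 gene lists leave out the 8 genes, 2 names were matched through older symbols and 5 listings were not matched. Genes named from a list are its called genes, at most 6 taken by ratio, or its 2 most abundant ones if under 2 were called, although not every gene chosen this way is given. The ligands Rspo3, Wnt2 and Wnt9b, the receptor Lgr6, Rhcg, Rhag, Mgst1 and the flanking genes were named outside this rule. For each called member, the 2 listed genes nearest in level were also named. Members and lists were chosen with earlier results of these data known. Calculations were tested on simulated data with known transcript lengths, so that test does not cover errors in length.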

Additional observations from a re-analysis of the deposited data

How the results depend on the processing

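The values that limit these results are few: 1 level per sex, no spread between pools, and only 58 and 214 implied reads for Lgr5 in male and female liver. Of the 8 genes, 5 stayed female-higher and 0 male-higher with a ratio beyond 1.5-fold and with the direction of the plain difference. The filter of a log2 RPKM of at least 1 could not change these counts, since all 8 genes reach it. At an adjusted p under 0.01, 4 were female-higher, and Axin2 was not called. The log2 ratio of Lgr5 was -0.96 on the log2(RPKM + 1) scale, which understates low genes by construction, against -1.40 as deposited. No called gene changed sign under the 4 alternatives for the ratio (plain difference, log2(RPKM + 1), log2(RPKM + 0.1), centring on all compared genes). Of these, only the plain difference could have turned a called gene. The scales with an added constant keep the sign of the plain difference by construction. Centring subtracts the median of -0.024, which is too small to turn a called ratio. Cyp1a2, which was not called, went from -0.011 as deposited to 0.005 by plain difference and 0.013 by centring. At an adjusted p under 0.01, the lists held 0 male-higher Wnt targets, 1 female-higher Wnt ligand or R-spondin gene, 0 male-higher Wnt inhibitors, 1 female-higher AHR battery gene, 2 female-higher and 0 male-higher glutamine and ammonia genes, 0 male-higher endothelial markers, 3 female-higher Kupffer cell markers and 1 female-higher blood marker. With a log2 RPKM of at least 1, male-higher counts were 0 for Wnt inhibitors, glutamine and ammonia genes and endothelial markers, and 1 blood marker was female-higher. The other 91 counts under these alternatives stayed within 1.5 times. The filters on adjusted p, level and fold can only remove calls, so a count of 0 had to stay 0 under them. Such counts are among the 91 and show no stability. No paired analysis was possible because the columns carry no pools. Leaving out each pool, DESeq2 and other size factors were not run for the same reason.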

Other observations

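Genes of the AHR battery, to which Cyp1a2 belongs, had 2 female-higher and no male-higher gene of 8 compared. Nqo1, a quinone reductase, had 2.69 RPKM in male liver, against 9.36 RPKM in female liver, and was 3.65-fold higher in female liver (adjusted p = 2.12e-10) per the authors' deposited table. Ahr itself was 1.41-fold higher in female liver (adjusted p = 0.0147) per the authors' deposited table, which classes it as sex-independent. Cyp1a1, which flanks Cyp1a2, had a log2 ratio of 0.86 and an adjusted p of 0.183 per the authors' deposited table, at log2 RPKM values of -1.296 in male and -2.1 in female liver.

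Among the hepatocyte markers, Alb was 1.62-fold higher in female liver (adjusted p = 0.000181), and Ahsg was 1.60-fold higher, per the authors' deposited table. Serpina1c (1.52-fold), Apoa1 (1.49-fold) and Apob (1.40-fold) were higher in male liver per the authors' deposited table. Of 8 cholangiocyte markers, Sox9 was female-higher and Spp1 1.73-fold higher in male liver (adjusted p = 9.76e-05) per the authors' deposited table. Of 11 blood and lymphocyte markers, Alas2, the heme synthesis gene of red cell precursors, was 6.67-fold higher in male liver (adjusted p = 2.59e-38) and Ptprc 1.45-fold higher in female liver (adjusted p = 0.0164) per the authors' deposited table. Nkg7 had 0 implied reads in male liver and 21 in female liver, and the exact counting interval of female over male starts at 3.98-fold. The median log2 ratio was 0.24 for the AHR battery, -0.10 for hepatocyte, -0.19 for cholangiocyte and 0.20 for blood and lymphocyte markers.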
